A study of Mus musculus with 60 samples.

Results

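The 10 genes followed here are markers of the brain's small blood vessels measured in the hippocampus of wild-type and Huntington's disease mice: Cldn5, Flt1, Pecam1, Cdh5, Tek, Abcb1a, Slco1a4, Slc2a1 and Mfsd2a of endothelial cells, and Pdgfrb of pericytes. They were chosen by name, 10 of the 24508 gene symbols in the deposited expression table, and all 10 were measured in all 18 RNA libraries. The series compared wild-type (WT) mice with R6/1 mice, a line that carries a fragment of the human huntingtin gene with an expanded CAG repeat under the human huntingtin promoter. RNA-seq came from 9 WT and 9 R6/1 hippocampi, given as separate biological replicates of mice aged 30 weeks on a mixed CBA and C57BL/6 background. Lamin B1 ChIP-seq came from pools of 5 mice, with 3 biological replicates per genotype and 1 deposited domain list per genotype, and ATAC-seq was not analysed here. The labels name no sex, litter or sampling day.

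Endothelial cells of brain capillaries form the blood-brain barrier: tight junctions seal the gaps between neighbouring cells, transporters carry nutrients in and pump foreign compounds out, and little cargo crosses in vesicles. Pericytes lie on the outer wall of the same vessels within a shared basement membrane and are held there by platelet-derived growth factor signalling from the endothelium. Several of these genes are not confined to vessels, since astrocytes also use the glucose transporter Slc2a1 and vascular smooth muscle cells and fibroblasts also carry Pdgfrb.

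Mfsd2a and Slc2a1 rose in R6/1 hippocampus and Tek and Pdgfrb fell, while the other 6 genes did not pass the test. The call of Pdgfrb was lost when each library was scaled by its own read total (-0.17 on the log2 scale, adjusted p = 0.127). Mfsd2a, the transporter that carries the omega-3 fatty acid DHA into the brain as a lysolipid and holds back vesicle traffic, was 1.81 times its WT mean. Slc2a1, the glucose transporter GLUT1 of the barrier, was 1.33 times its WT mean. Tek, the angiopoietin receptor Tie2, was at 0.667 times and Pdgfrb at 0.836 times the WT mean. The means of 8 of the 10 genes were lower in R6/1, and the median log2 fold change of the 10 was -0.16, beside 0.00363 over the 14446 genes tested. Of all tested genes, 48.3% were called, 24.8% higher and 23.5% lower, so 4 of 10 called is close to the share over all genes. Levels are in RPKM (reads per kilobase of gene, scaled for depth by the authors), each fold change is R6/1 over WT on the log2(RPKM + 0.5) scale, and a gene is called at an adjusted p under 0.05 from limma, a linear model fitted to all tested genes. The tissue was whole hippocampus, so fewer vessel cells and less RNA per vessel cell cannot be told apart. Nor do the values show in which cells a gene rose or fell, and this holds for Mfsd2a and Slc2a1 too.

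The stretches of promoter before the genes called with the 3 largest changes are shown because they lie on chromosome 4 and 2 of them, those of the genes that rose, hold a motif in common. Each runs 5′ to 3′ on the gene's strand from 250 to 5 bases before the RefSeq start (sequences from RefSeq, table build GRCm38.p6), and each matched 1 place exactly on chromosome 4 of build NCBIM37. Capitals mark the letters ACGTG, a form of the core of the hypoxia response element, which other motifs also contain. The other form of that core, GCGTG, was neither searched nor marked, so the matches given do not count every such core. The Tek window is chr4:94405730-94405975 on the plus strand, the Slc2a1 window chr4:118781100-118781345 on the plus strand and the Mfsd2a window chr4:122638436-122638681 on the minus strand.
Tek: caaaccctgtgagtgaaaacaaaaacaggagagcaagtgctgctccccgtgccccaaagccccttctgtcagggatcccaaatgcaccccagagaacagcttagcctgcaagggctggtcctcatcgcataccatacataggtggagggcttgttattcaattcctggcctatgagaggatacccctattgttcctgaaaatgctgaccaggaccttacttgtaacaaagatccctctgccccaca
Slc2a1: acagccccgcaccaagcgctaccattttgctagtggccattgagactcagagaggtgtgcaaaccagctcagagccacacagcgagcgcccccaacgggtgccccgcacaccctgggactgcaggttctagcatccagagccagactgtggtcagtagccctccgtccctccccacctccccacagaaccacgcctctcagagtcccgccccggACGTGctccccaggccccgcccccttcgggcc
Mfsd2a: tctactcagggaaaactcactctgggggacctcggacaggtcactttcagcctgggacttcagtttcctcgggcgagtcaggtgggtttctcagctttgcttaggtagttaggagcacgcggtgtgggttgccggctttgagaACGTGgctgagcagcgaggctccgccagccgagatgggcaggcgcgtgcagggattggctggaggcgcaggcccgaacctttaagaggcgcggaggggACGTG

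The Mfsd2a window held ACGTG at 2 places, ending 103 and 5 bases before the RefSeq start, and the Slc2a1 window at 1 place, ending 32 bases before the RefSeq start. The search read both strands, and found no further ACGTG in these windows and none in those of Tek, Cldn5, Flt1, Abcb1a or Slco1a4. A promoter entry was at hand for 7 of the 10 genes and not for Pecam1, Cdh5 or Pdgfrb. Over 32841 mouse promoters cut to the same window, 16.3% held ACGTG on either strand, and a promoter in which matches of both strands overlap was counted once. The letters GGAAG, which extend the ETS factor core GGAA by a base, were searched on both strands. They stood in the windows of Flt1, Abcb1a and Slco1a4 and in 63.3% of all promoters. The shorter GGAA was not searched, so a window without GGAAG can still hold that core. The TATA box, searched as TATAAA on both strands, stood in the window of Flt1 and in 12.3% of all promoters. The motifs were chosen after the sequences were seen, and a match describes letters, not a bound site. G and C made up 51.2% of the Tek window, 66.3% of that of Slc2a1 and 61.8% of that of Mfsd2a. The GENCODE model of Slc2a1 begins at 118781316, inside the window shown and within its marked ACGTG, so the match does not lie upstream of that start.

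Before the values of single genes, 2 libraries need naming. WT replicate 1 had the lowest WT level of 8 of the 10 genes, all but Slc2a1 and Mfsd2a, and the highest WT level of Mfsd2a. R6/1 replicate 5 had the highest R6/1 level of 7 of the genes and the lowest of Mfsd2a and Slc2a1. Among 2344 genes whose genotypes did not overlap in the other 16 libraries, WT replicate 1 lay nearer the WT mean for 79.6% and R6/1 replicate 5 nearer the R6/1 mean for 78.8%, so neither went against its label, although the same share in each of the other 16 libraries was 85.3% to 95.7%. Fold changes, counts of calls and correlations that rest on these libraries are therefore also given without them. Reads on genes ran from 12299434 to 16736544 per library, and the fewest reads on a vessel gene in a library were 141, on Tek. The neuronal marker Snap25 and the astrocyte marker Slc1a2 were present in every library, at 688 RPKM or more and 249 RPKM or more.

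**Figure D1:**
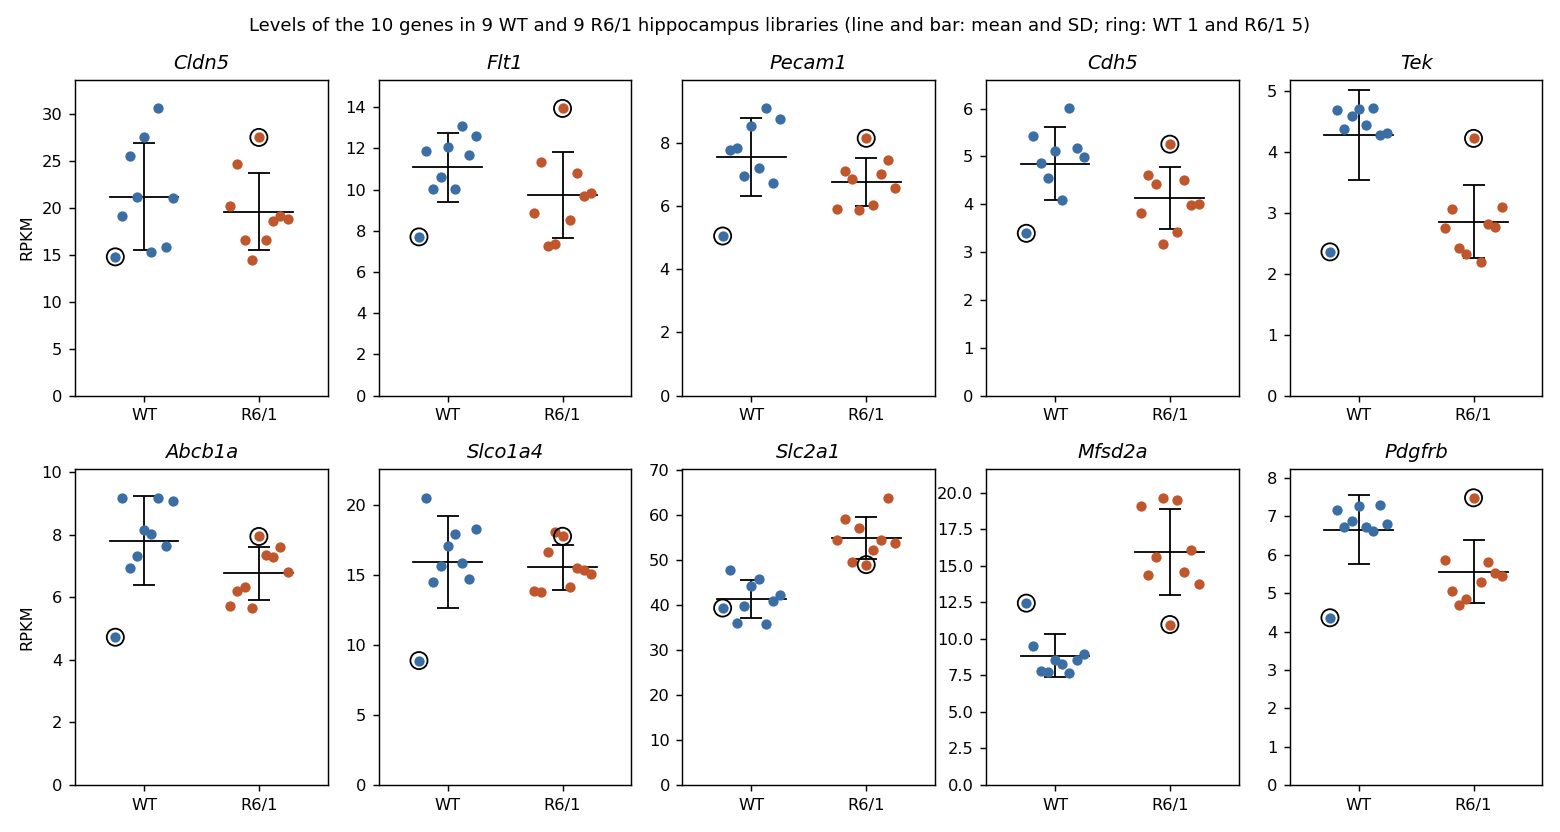
RPKM of each of the 10 genes (vertical axis, from 0) in the 9 WT and 9 R6/1 libraries, 1 point per library, with the mean and SD as line and bar and a ring around WT replicate 1 and R6/1 replicate 5. Slc2a1 is the gene whose genotypes do not overlap, with WT up to 47.7 and R6/1 from 49.0, while the ringed libraries lie on the far side of their own genotype for Tek, Pdgfrb and Mfsd2a.

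The junction and adhesion genes were Cldn5, Cdh5 and Pecam1. Cldn5 (chr16:18776940-18778353, plus strand, a single exon) encodes claudin-5, the main sealing protein of the barrier's tight junctions. Its lowest, median and highest levels were 14.8, 21.0 and 30.6 RPKM in WT and 14.4, 18.8 and 27.5 RPKM in R6/1. The genotypes covered nearly the same range, and the log2 fold change was -0.09 with a 95% interval from -0.39 to 0.20 (adjusted p = 0.616). Without WT replicate 1 and R6/1 replicate 5 it was -0.21 and did not pass either (adjusted p = 0.191).

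Cdh5 (chr8:106625525-106668402, plus strand) encodes VE-cadherin, which holds endothelial cells together at adherens junctions. The lowest, median and highest Cdh5 levels were 3.39, 4.99 and 6.01 RPKM in WT and 3.17, 4.01 and 5.26 RPKM in R6/1. Most R6/1 libraries lay in the lower part of the WT range, and the log2 fold change of -0.20 did not pass (adjusted p = 0.0759). Without WT replicate 1 it was -0.26 and passed (adjusted p = 0.0141).

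Pecam1 (chr11:106515531-106611942, minus strand) encodes CD31, an adhesion molecule of endothelial cell contacts that blood platelets and leukocytes also carry. Pecam1 had a lowest, median and highest level of 5.05, 7.77 and 9.09 RPKM in WT and 5.88, 6.85 and 8.14 RPKM in R6/1. All R6/1 libraries lay within the WT range, and the log2 fold change was -0.14 (adjusted p = 0.212). It was -0.20 without WT replicate 1, past the threshold (adjusted p = 0.0227).

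The receptors were Tek and Flt1 of the endothelium and Pdgfrb of the pericyte. Tek (chr4:94405980-94541667, plus strand), which takes up angiopoietin signals that steady the vessel wall, had a lowest, median and highest level of 2.36, 4.45 and 4.71 RPKM in WT and 2.20, 2.77 and 4.22 RPKM in R6/1. All 9 R6/1 libraries lay below the WT median. The genotypes overlapped through WT replicate 1, at 2.36, and no other WT library was under 4.28. Tek fell by 0.51 on the log2 scale (SE 0.11, adjusted p = 0.000948), from 4.27 ± 0.738 to 2.85 ± 0.601 RPKM (SD, n = 9 each). It fell by 0.60 without WT replicate 1 and by 0.66 without WT replicate 1 and R6/1 replicate 5.

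Pdgfrb (chr18:61204804-61244715, plus strand), the receptor through which endothelial PDGF-B holds pericytes, had a lowest, median and highest level of 4.36, 6.81 and 7.29 RPKM in WT and 4.69, 5.45 and 7.49 RPKM in R6/1. Apart from WT replicate 1, at 4.36, WT began at 6.63, and apart from R6/1 replicate 5, at 7.49, R6/1 ended at 5.87. Pdgfrb fell by 0.24 (SE 0.087, adjusted p = 0.0300), from 6.65 ± 0.896 to 5.56 ± 0.825 RPKM (SD, n = 9 each). This call depends on single libraries: the adjusted p reached 0.0587 when 1 library was left out and was lost in 6 of 18 such fits (without WT replicate 2, 5 or 8, or R6/1 replicate 2, 3 or 4). Without WT replicate 1 and R6/1 replicate 5 it fell by 0.36 (adjusted p = 7.51e-06).

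Flt1 (chr5:148373180-148537587, minus strand) encodes VEGF receptor 1, which binds VEGF and limits its action on VEGF receptor 2. Its lowest, median and highest levels were 7.70, 11.7 and 13.1 RPKM in WT and 7.28, 9.69 and 13.9 RPKM in R6/1. The R6/1 range spanned the whole WT range, with R6/1 replicate 5 as its highest. The log2 fold change of -0.19 did not pass (adjusted p = 0.167), and -0.25 without WT replicate 1 did (adjusted p = 0.0489).

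The transporters were Mfsd2a, Slc2a1, Abcb1a and Slco1a4. Mfsd2a (chr4:122624093-122638431, minus strand) had a lowest, median and highest level of 7.65, 8.53 and 12.4 RPKM in WT and 10.97, 15.6 and 19.6 RPKM in R6/1. Of 9 R6/1 libraries, 8 lay above the highest WT library, which was WT replicate 1, and the remaining one was R6/1 replicate 5. Mfsd2a rose by 0.81 (SE 0.10, 95% interval 0.59 to 1.02, adjusted p = 2.39e-06), from 8.83 ± 1.48 to 15.9 ± 2.97 RPKM (SD, n = 9 each). The rise was 0.93 without WT replicate 1 and R6/1 replicate 5.

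Slc2a1 (chr4:118781316-118809935, plus strand) was the most abundant of the 10 genes in both genotypes. GLUT1 message had a lowest, median and highest level of 35.7, 41.0 and 47.7 RPKM in WT and 49.0, 54.4 and 63.8 RPKM in R6/1. The genotypes did not overlap, which held for 11.9% of all tested genes (5.50% with R6/1 higher). Slc2a1 rose by 0.41 (SE 0.059, adjusted p = 1.09e-05), from 41.3 ± 4.14 to 54.8 ± 4.66 RPKM (SD, n = 9 each). The GENCODE models Gm12867 and Gm12868 on the opposite strand and the microRNA gene Mir1957 lie within its bounds, and the strand setting of the authors' counting is not given in the sources used here.

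Abcb1a (chr5:8660077-8748575, plus strand) encodes P-glycoprotein, the pump that returns many drugs to the blood. Its lowest, median and highest levels were 4.72, 8.02 and 9.18 RPKM in WT and 5.67, 6.81 and 7.95 RPKM in R6/1. R6/1 lay within the WT range and the log2 fold change of -0.18 did not pass (adjusted p = 0.146). Without WT replicate 1, whose 4.72 stood below the next WT value of 6.95, it was -0.26 (adjusted p = 0.00612). How reads shared with its close paralog Abcb1b were counted is not given, so the level is uncertain to that extent.

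Slco1a4 (chr6:141753961-141804720, minus strand) encodes an organic anion transporter and belongs to a cluster of close paralogs, with the same uncertainty. Its lowest, median and highest levels were 8.89, 15.8 and 20.5 RPKM in WT and 13.8, 15.4 and 18.0 RPKM in R6/1. The R6/1 libraries lay inside the WT range. The log2 fold change was -0.01 with a 95% interval from -0.24 to 0.22 (adjusted p = 0.962), and its sign changed with the scaling and with single libraries.

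**Figure D2:**
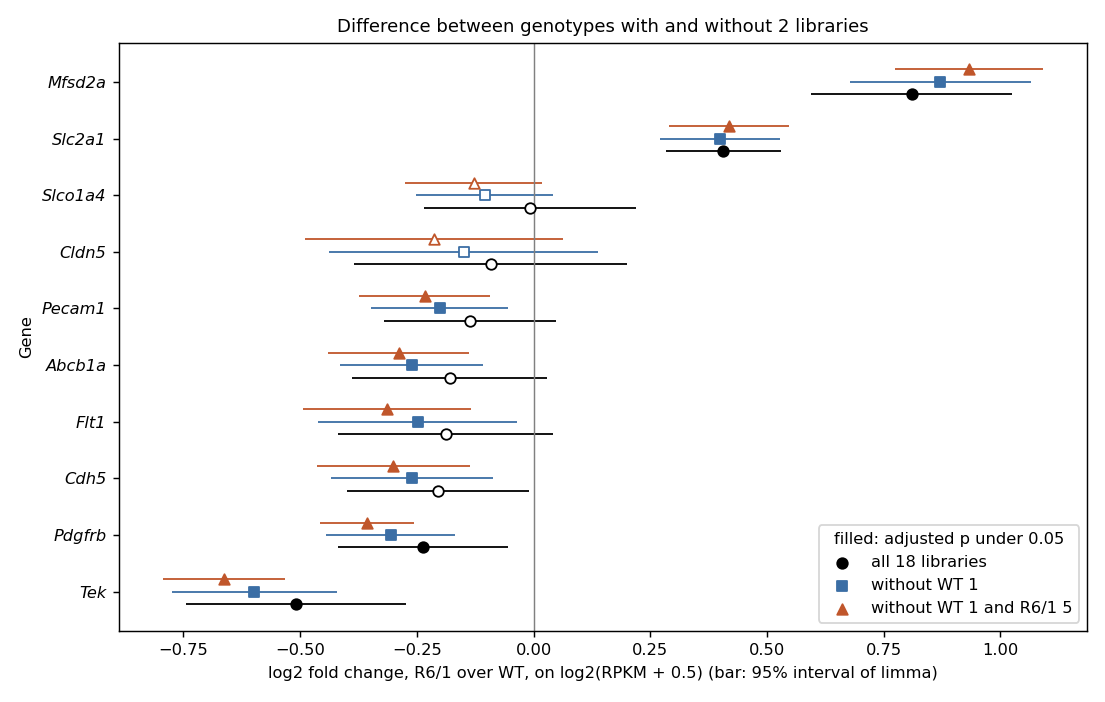
log2 fold change of R6/1 over WT on log2(RPKM + 0.5) (horizontal axis, bars are limma's 95% intervals) for each of the 10 genes with all 18 libraries, without WT replicate 1, and without WT replicate 1 and R6/1 replicate 5, filled where the adjusted p was under 0.05. With all libraries 2 genes were called lower. Without WT replicate 1, singled out as the lowest WT library for 8 of the 10 genes, there were 6. The calls of Mfsd2a and Slc2a1 stood in all 3 fits.

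The number of genes called lower varied with single libraries of both genotypes. It ran from 1 to 6 when 1 library was left out, and was 1, Tek, in the 6 fits in which Pdgfrb was lost. With all libraries, Tek and Pdgfrb were called lower. Without WT replicate 1, these and Flt1, Pecam1, Cdh5 and Abcb1a were, 6 of 10, where 24.3% of all tested genes were called lower and 25.4% higher. Without R6/1 replicate 5, Tek, Pdgfrb, Flt1 and Cdh5 were, 4 of 10, beside 23.6% of all tested genes lower and 24.9% higher. Leaving out both, which was chosen after the values were seen, gave the same 6 as leaving out WT replicate 1, beside 24.2% of all tested genes lower and 25.6% higher. Both libraries were singled out by their levels of these same genes, so the added calls follow in part from that choice. The genes also vary together over libraries, so 6 of 10 is not a count of separate results and cannot be read against the share over all genes. Mfsd2a and Slc2a1 were called higher and Cldn5 and Slco1a4 were not called in each of these fits. In the authors' deposited table the same 4 genes had an adjusted p under 0.05, where 40.4% of the 18395 genes with an adjusted p did, and the log2 fold changes there were 0.81 for Mfsd2a, 0.40 for Slc2a1, -0.55 for Tek and -0.25 for Pdgfrb.

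Other tissue components moved beside these libraries and genes. WT replicate 1 had the lowest WT summed level of the lists of tight junction genes, barrier transporters, endothelial identity genes, pericyte genes, smooth muscle genes and basement membrane genes. It had the highest of the neuron and astrocyte lists and of the barrier Wnt and Norrin list (245 RPKM). From the lowest it ranked 3 for growth factors and receptors and 6 for perivascular fibroblasts. R6/1 replicate 5 had the highest R6/1 summed level of the lists in which WT replicate 1 was lowest, except smooth muscle. It also had the highest of the growth factor and receptor, astrocyte, microglia and oligodendrocyte lists. It had the lowest of the perivascular fibroblast list (24.6 RPKM) and the second lowest of the neuron list. The choroid plexus lies within the ventricles beside the hippocampus. The summed level of 8 markers of its epithelium ran from 25.7 to 1081 RPKM in WT and from 39.2 to 1751 RPKM in R6/1, and limma called 0 of the 8 (0 at an unadjusted p under 0.05). Over the 18 libraries, with genotype means removed, the mean log2 level of these markers had a Pearson r of -0.68 with Flt1 and -0.59 with Abcb1a. It was -0.50 with Pdgfrb, -0.48 with Cdh5, -0.45 with Tek, -0.32 with Pecam1, -0.23 with Slco1a4 and -0.20 with Cldn5. With Mfsd2a it was 0.39 and with Slc2a1 0.04, as a description of libraries that share their dissection. With the choroid level as a covariate the 4 calls were kept. Of 6 blood cell genes, 3 (Hbb-b1, Hbb-b2 and Hba-a2) were listed at 0 in all libraries, and the erythroid enzyme Alas2 fell from 1.18 ± 0.525 to 0.522 ± 0.333 RPKM (SD, n = 9 each; log2 fold change -0.73, adjusted p = 0.00154). Over all libraries Hba-a1 averaged 0.00614 RPKM and Ptprc 0.628 RPKM. The blood list's level thus rested almost wholly on Alas2 and Ptprc, both low, and is a weak measure of blood. With the blood list's level as a covariate limma called 0 vessel genes lower, 1 at an unadjusted p under 0.05. Tek was at -0.32 (adjusted p = 0.107) and Pdgfrb at -0.20 (adjusted p = 0.230), and Mfsd2a and Slc2a1 were still called higher. Calls fell over all tested genes too, from 3586 higher and 3394 lower to 2212 and 2312. Because Alas2 differed between genotypes, this covariate is partly tied to genotype, and the lost calls are not particular to the vessel genes. What part blood in the vessels had in the values was not tested further.

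To compare the genes with a vessel gene of the same library, each was divided by Pecam1, and the log2 ratios of 9 WT and 9 R6/1 libraries were compared by a two-sided exact permutation test over 48620 relabellings, with Benjamini-Hochberg adjustment over the 9 ratios. Relative to Pecam1, Mfsd2a was higher in R6/1 by 0.95 (adjusted p = 0.00210), Slc2a1 was higher by 0.54 (adjusted p = 0.00185) and Tek fell by 0.37 (adjusted p = 0.00185). Of 9 R6/1 libraries, 8 had a Tek to Pecam1 ratio below every WT library. The ratio of Pdgfrb to Pecam1 differed by -0.10 and did not pass (adjusted p = 0.362), nor did those of Slco1a4 (0.13), Cdh5 (-0.07), Flt1 (-0.05), Abcb1a (-0.04) and Cldn5 (0.04), with adjusted p from 0.362 to 0.677. This test was chosen after the values were seen. The 3 ratios that passed did so without each library in turn, with a range from -0.40 to -0.35 for Tek, 0.48 to 0.60 for Slc2a1 and 0.88 to 1.07 for Mfsd2a.

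The order of the genes by level in WT was Slc2a1, Cldn5, Slco1a4, Flt1, Mfsd2a, Abcb1a, Pecam1, Pdgfrb, Cdh5 and Tek. The ranges over WT libraries overlapped between every pair of neighbours but Slc2a1 and Cldn5, so the spread between libraries does not separate those neighbours. Within a library the order was steadier for some: Slco1a4 exceeded Flt1, and Pdgfrb exceeded Cdh5, in 9 of 9 WT libraries, and Pecam1 exceeded Pdgfrb in 8 of 9, while Abcb1a exceeded Pecam1 in 6 of 9. Flt1 exceeded Mfsd2a in 8 of 9 WT libraries and in 1 of 9 R6/1 libraries. Mfsd2a and Abcb1a, which overlapped in WT, did not overlap in R6/1, where Mfsd2a was higher in 9 of 9 libraries.

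How the genes varied together from library to library within genotypes depended in part on WT replicate 1 and R6/1 replicate 5. After the genotype mean was removed, the 28 pairs among the 8 genes other than Slc2a1 and Mfsd2a had a Pearson r from 0.19 to 0.90 with a median of 0.73 over 18 libraries. Mfsd2a had an r from -0.87 to -0.43 with those 8 genes, and Slc2a1 from -0.30 to 0.29. In the 16 libraries other than those, the 28 pairs ran from -0.41 to 0.70 with a median of 0.37, and 6 of them were below 0, among them Slco1a4 with Cldn5 (-0.41), with Pdgfrb (-0.25) and with Flt1 (-0.21), and Pecam1 with Pdgfrb (-0.09). Mfsd2a then had an r from -0.66 to 0.34 with the 8 genes, below 0 for 6 of them and above 0 for Slco1a4 (0.34) and Pdgfrb (0.07).

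Tek and Mfsd2a gave the strongest negative pair, with r = -0.87 (permutation p = 0.00022, adjusted over 45 pairs 0.00186) and Spearman's rho = -0.77 (permutation p = 0.00014, adjusted 0.00315). The r was -0.72 without the 2 libraries farthest from the median of Tek, -0.66 in the 16 libraries other than WT replicate 1 and R6/1 replicate 5, -0.88 within WT and -0.89 within R6/1. Tek and Pdgfrb had an r of 0.90 that was 0.38 without those 2 libraries, so that relation rests on them to a large extent. Pecam1 and Cdh5, both proteins of endothelial contacts, had an r of 0.83, and of 0.66 without them.

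**Figure D3:**
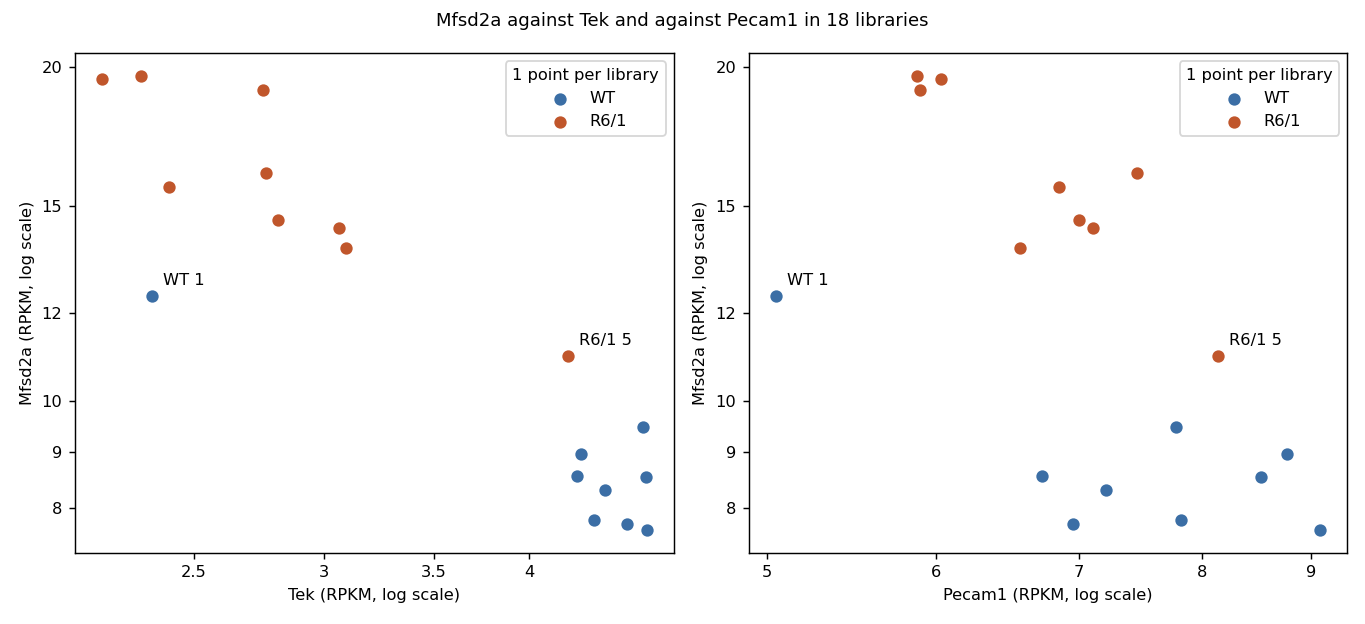
Mfsd2a (vertical axis, RPKM, log scale) against Tek (left) and Pecam1 (right, both RPKM, log scale) in 18 libraries, 1 point per library, coloured by genotype. WT replicate 1, with Tek at 2.36 and Mfsd2a at 12.4, lies apart from the other WT libraries, and R6/1 replicate 5, with Tek at 4.22 and Mfsd2a at 10.97, apart from the other R6/1 libraries.

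The genes whose pattern over libraries was most like that of Cldn5, among 13095 genes that averaged 1 RPKM or more, were Trmt2a (r = 0.86), Nos3 (0.86), Mcam (0.84), Lsr (0.83) and Pxn (0.81), again with genotype means removed and as a description over 18 libraries. Nos3 is the endothelial nitric oxide synthase, Mcam an adhesion molecule of vessel cells and Lsr a protein of tight junctions where 3 cells meet. Without WT replicate 1 and R6/1 replicate 5 these 5 values lay between 0.73 and 0.83. For Pdgfrb they were Sox13 (0.89), Samd4 (0.88), Slc22a23 (0.87), 4931406P16Rik (0.86) and Robo3 (0.85), and without the same 2 libraries Slc22a23 was at 0.81, Samd4 at 0.63, Sox13 at 0.56, 4931406P16Rik at 0.52 and Robo3 at 0.28. For Mfsd2a, added after its values were seen, they were Pithd1 (0.85), Kbtbd2 (0.84), Ccdc43 (0.80), Mpi (0.80) and Azin1 (0.80), between 0.54 and 0.71 without those 2 libraries, with no gene of the vascular lists among them.

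The partners of these genes were read from lists fixed with earlier results of these data known, and each count stands beside the 24.8% higher and 23.5% lower over all tested genes. Among 10 further tight junction genes, 0 were called higher and 2 lower, with a median log2 fold change of -0.05 that turned to 0.02 when libraries were scaled by their own totals of reads. Jam2, an endothelial junctional adhesion molecule, fell from 11.6 ± 0.866 to 8.35 ± 1.28 RPKM (log2 fold change -0.46, adjusted p = 2.52e-05), and Ocln, which encodes occludin, fell by 0.30 (adjusted p = 0.00172). Tjp1, the scaffold ZO-1 and the most abundant of the list, was at 20.3 ± 1.13 and 19.2 ± 1.53 RPKM and did not pass (adjusted p = 0.161). The count was 3 of 10 lower without WT replicate 1 and R6/1 replicate 5.

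Among 12 further barrier transporters, 3 were called higher and 6 lower, with a median of -0.21. Abcg2, a drug efflux pump, rose from 7.65 ± 1.16 to 10.3 ± 0.807 RPKM (log2 fold change 0.41, adjusted p = 4.86e-05), while Abcb1a did not pass. The cationic amino acid transporter Slc7a1 rose by 0.32 (adjusted p = 1.09e-05) and Slc7a5, the LAT1 carrier of large neutral amino acids, by 0.31 (adjusted p = 0.000647). Slc38a5, a glutamine carrier, fell from 2.36 ± 0.665 to 0.972 ± 0.435 RPKM (-0.98, adjusted p = 0.000111), Slc22a8, an organic anion exporter, fell by 0.70 (adjusted p = 0.000165), and Slc40a1, the iron exporter ferroportin, fell by 0.62 with no overlap between genotypes (adjusted p = 6.42e-06). Transporters called in both directions thus stood side by side in the same libraries. Slc22a8 is also made by choroid plexus epithelium, and Slc7a1 and Slc7a5 are not confined to vessels.

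Among 17 vascular growth factors and receptors, 2 were called higher and 7 lower, with a median of -0.15. Angpt1, the angiopoietin that activates Tek, rose from 1.94 ± 0.351 to 3.12 ± 0.295 RPKM (log2 fold change 0.58, adjusted p = 8.34e-06), with R6/1 from 2.73 and WT up to 2.45, while its receptor fell. Tie1, the partner receptor of Tek, fell from 3.07 ± 0.788 to 2.05 ± 0.487 RPKM (-0.47, adjusted p = 0.0102), and WT replicate 1, at 1.36, was its lowest library. Pdgfb, the ligand of Pdgfrb, fell from 8.63 ± 1.17 to 6.19 ± 0.454 RPKM (-0.44, adjusted p = 3.17e-05), and neurons also express it. S1pr1, the sphingosine phosphate receptor of endothelium and astrocytes, fell from 64.5 ± 5.00 to 41.8 ± 5.83 RPKM with no overlap (-0.63, adjusted p = 3.23e-07). Notch4, a Notch receptor of endothelium, rose by 0.37 (adjusted p = 0.000950).

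Among 19 genes of endothelial identity, 0 were called higher, 9 lower and 10 not called, with a median of -0.24 and 15 log2 fold changes below 0. Scaled by own totals of reads, 7 were called lower and 1 higher, beside 2525 of all tested genes lower and 5113 higher. Without WT replicate 1 and R6/1 replicate 5, 12 were called lower. The genes named here are those called with the largest changes and the most abundant, so they do not show the 10 not called. Pltp, a phospholipid transfer protein, fell from 35.8 ± 4.32 to 18.7 ± 3.28 RPKM with no overlap (log2 fold change -0.93, adjusted p = 8.82e-08). The adhesion molecule Icam2 fell by 0.61 (adjusted p = 0.000236), the forkhead factor Foxq1 by 0.53 (adjusted p = 2.13e-05) and Itm2a, the most abundant of the list, by 0.51 (adjusted p = 8.60e-06). Among 13 genes of the Wnt and Norrin pathways that maintain the barrier, 1 was called higher and 7 lower, with a median of -0.29, and 9 were called lower without WT replicate 1 and R6/1 replicate 5. The ligands Wnt7a and Wnt7b fell by 0.62 and 0.49 (adjusted p = 0.000160 and 5.97e-05) and the target gene Apcdd1 by 0.47 (adjusted p = 0.000338), while Ctnnb1, which encodes beta-catenin in all cells, rose by 0.17 (adjusted p = 0.000519). In the brain, Wnt7a and Wnt7b are known to be made by neural cells, which signal to the vessels.

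Among 13 further pericyte genes, 1 was called higher and 3 lower, with a median of -0.15 and 12 of 13 log2 fold changes below 0. Rgs5, a regulator of G protein signals in pericytes, fell from 37.5 ± 3.30 to 26.0 ± 4.50 RPKM (log2 fold change -0.53, adjusted p = 1.86e-05). Art3 and Atp13a5 fell by 0.32 and 0.23 (adjusted p = 0.0135 and 0.0387) and the forkhead factor Foxc1 rose by 0.32 (adjusted p = 0.00485). Vtn, the vitronectin gene and the most abundant of the list, was at 43.8 ± 8.75 and 41.3 ± 4.14 RPKM and did not pass (adjusted p = 0.605). The count was 4 lower without WT replicate 1 and R6/1 replicate 5. With all libraries, 3 of 13 lower is close to the 23.5% over all tested genes.

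Of the neighbouring vessel cells, limma called 0 of 6 tested smooth muscle genes (0 at an unadjusted p under 0.05), and 2 were called lower without WT replicate 1. Myl9, the most abundant of them, was at 13.2 ± 4.40 and 12.2 ± 1.16 RPKM (adjusted p = 0.789). Among 7 perivascular fibroblast genes, 2 were called lower, the matrix proteoglycans Ogn (-0.85, adjusted p = 0.00183) and Lum (-0.57, adjusted p = 0.00271), and Dcn, the most abundant, did not pass (adjusted p = 0.319). The count was 3 without WT replicate 1. Of 9 basement membrane genes, 3 were called lower, the collagens Col4a1 (-0.28, adjusted p = 0.0298) and Col4a2 (-0.26, adjusted p = 0.0434) and the perlecan gene Hspg2 (-0.22, adjusted p = 0.0472), and 0 of the 9 when each library was scaled by its own total of reads (limma, 0 lower and 1 higher at an unadjusted p under 0.05). Leaving out WT replicate 1 and R6/1 replicate 5 gave 4 of the 9 lower.

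Genes of the other cells of the tissue were also called lower. Of 7 astrocyte genes 6 were called lower (median -0.48), of 6 neuron genes 6 (median -0.32), of 6 oligodendrocyte genes 4 (median -0.28) and of 6 microglia genes 3 (median -0.27), and 0 in these lists were called higher. Leaving out WT replicate 1 and R6/1 replicate 5 gave 5 oligodendrocyte and 4 microglia genes lower, and without WT replicate 1 alone 2 microglia genes were called. The median of the 10 vessel genes was -0.16, and the difference between lists was not tested.

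**Figure D4:**
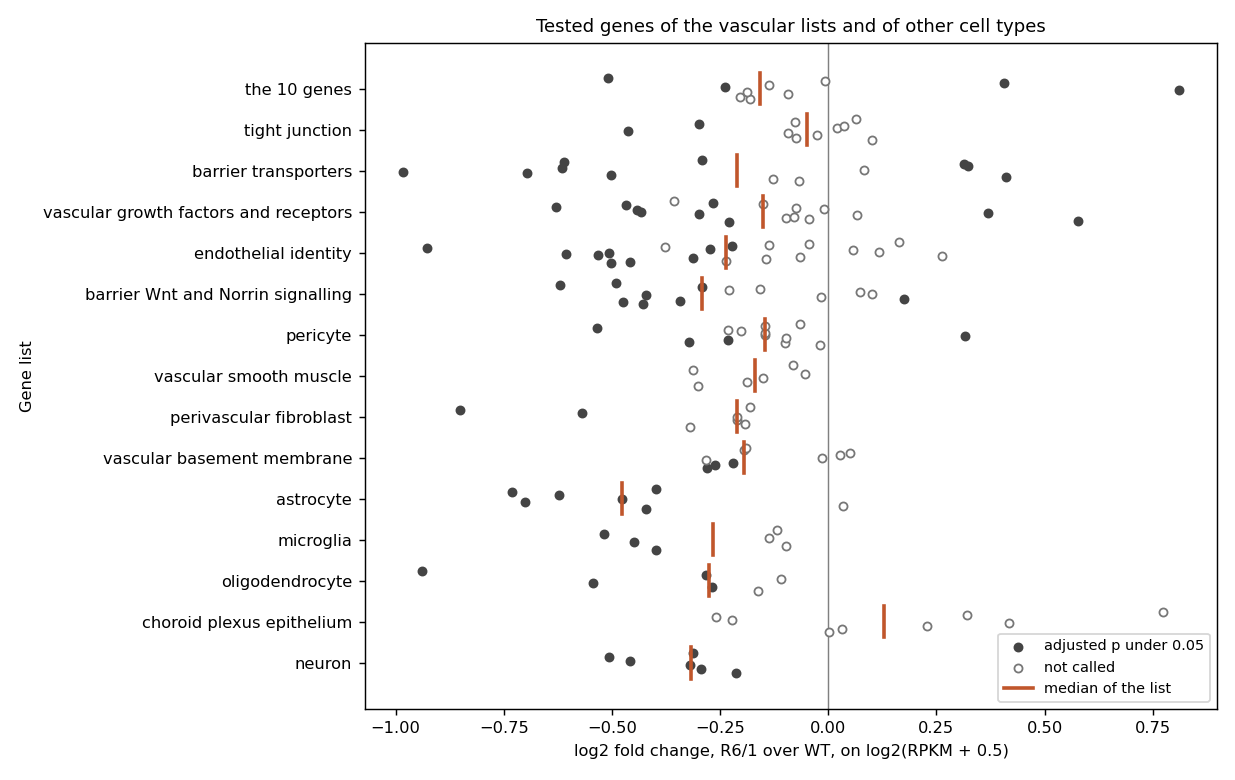
log2 fold change of R6/1 over WT on log2(RPKM + 0.5) (horizontal axis) for every tested gene of each list (rows), filled where the adjusted p was under 0.05, with the median of the list as a bar. The 10 vessel genes have a median of -0.16 and 2 called genes on each side of 0, and the medians of the lists range from -0.48 for astrocytes to 0.13 for choroid plexus epithelium.

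Lamin B1 lines the inner face of the nuclear envelope, and the series mapped the large genome domains that touch it. The start of Tek lay inside such a domain in both genotypes (build NCBIM37): chr4:89207001-97088000 in WT, 7.88 Mb long with the nearer border 2.68 Mb from the start, and chr4:89207001-97199000 in R6/1, 7.99 Mb long with the nearer border 2.79 Mb away. Abcb1a also lay inside, in chr5:5550001-15059000 in WT and chr5:5698001-15059000 in R6/1, with the nearer border 3.11 and 2.96 Mb away. These 2 of 10 genes compare with 1010 of 13078 tested genes found by symbol (7.72%), as a description with no test.

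Mfsd2a and Slc2a1, on the same chromosome as Tek, started outside, 8.72 and 4.86 Mb from the nearest WT domain. Cdh5 lay 0.177 Mb from the end of a WT domain and 1.47 Mb from the nearest R6/1 domain, and Pdgfrb 0.562 and 0.599 Mb from them. No gene of the 10 changed side between genotypes. With 1 list per genotype there is no spread over replicates for these borders, and the lists hold no value from vessel cells alone, since the chromatin came from whole hippocampus.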

How the data were processed

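RNA-seq was made from stranded messenger RNA libraries of 9 WT and 9 R6/1 hippocampi, and the labelled genotype sets the groups. Reads were aligned with TopHat and compared with DESeq2 on build mm9, per the submitters' processing notes; the counter, annotation and strand setting are not given in the sources used here. The authors deposited RPKM for 24508 genes, and a table with a mean normalized count (unit signal), log2 fold changes, their standard errors, a test score and p-values; 6113 genes have no adjusted p there. The authors' deposited domain lists give 1 score per domain, which was not used; domain bounds were set against NCBIM37 with GENCODE genes. Deposited RPKM gave whole reads (within 0.05 of a read) for 99.8% to 99.9% of values per library, 12299434 to 16736544 reads. No molecular identifiers are named. Of the columns with values of single samples, 0 went unused.

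Members and gene lists were chosen with earlier results of these data known. Genes averaging 0.5 RPKM or more were tested with limma 3.58.1 (R 4.3.3; lmFit and eBayes with trend, two-sided) on log2(RPKM + 0.5), without covariates, with Benjamini-Hochberg adjustment over 14446 genes and a threshold of 0.05. The fit was also run on simulated counts with a single dispersion. These do not reproduce libraries that deviate over many genes, such as WT replicate 1 and R6/1 replicate 5, so that run cannot vouch for the fit here. Named from each list were up to 3 genes called higher and 3 lower with the largest change and a mean of at least 1 RPKM, and the most abundant gene; named as alike were 5 genes each for Cldn5 and Pdgfrb by Pearson r. Permutation tests used numpy 2.4.6, with ranks from scipy 1.17.1. Alternatives were other pseudocounts, filters, scalings, weights, covariates, a count-based fit, a replicate block and leaving out each library. Leaving out WT replicate 1 and R6/1 replicate 5 together, the ratios to Pecam1 and the motifs were chosen after seeing the data.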

Additional observations from a re-analysis of the deposited data

Results flagged for a closer look

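In 6 of the 20 groups examined (10 genes in 2 genotypes), 1 library lay far from the other 8 by Dixon's criterion, where chance alone gives about 1 in 20. Each of the 6 was WT replicate 1 or R6/1 replicate 5. Because the 10 genes were measured in the same libraries and vary together, the 20 groups are not separate tests. The count of 6 therefore cannot be weighed against that share. WT replicate 1 was the lowest WT library for Tek (2.36 RPKM, the next 4.28), Abcb1a (4.72, the next 6.95) and Pdgfrb (4.36, the next 6.63), and the highest for Mfsd2a (12.4, the next 9.48). R6/1 replicate 5 was the highest R6/1 library for Tek (4.22 RPKM, the next 3.10) and Pdgfrb (7.49, the next 5.87). In each case the library lay towards the values of the other genotype. The labels give no date, lane or dissection note for these libraries, and the cause was not tested.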

How the results depend on the processing

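Mfsd2a and Slc2a1 were called higher in all 34 settings, with log2 fold changes from 0.61 to 0.93 and from 0.38 to 0.48. The number of vessel genes called lower was 2 with all libraries, beside 3394 of all tested genes. With each library scaled by its own total of reads it was 1 (Tek, with Pdgfrb lost), beside 2525. Library weights gave 5, beside 3602. The blood cell level as a covariate gave 0, beside 2312 (2212 genes were called higher). Leaving out WT replicate 1 and R6/1 replicate 5 gave 6, beside 3490. The cause of these differences was not tested. Leaving out 1 library gave 1 to 6 vessel genes lower, 2 to 2 higher, 3425 to 3671 genes higher and 3237 to 3504 lower. Scaling by own totals moved the median of all genes to 0.07 and the calls from 3586 higher and 3394 lower to 5113 and 2525. The sign of Slco1a4 turned with own totals (0.0632), with the choroid level as a covariate (0.000436) and over single libraries (-0.10 to 0.0407), that of Cldn5 with the blood level (0.16), and that of the Cldn5 to Pecam1 ratio over single libraries (-0.00195 to 0.0807). The adjusted p of Pdgfrb ran from 7.51e-06 to 0.230 and that of Tek from 1.26e-07 to 0.107. The labels state no pairing by replicate number. Same-numbered libraries correlated at -0.05 to 0.24, 3 of 9 pairs above 0.1, and 2 of 9 correlated best with their own number. A fit with the replicate block called 3 vessel genes lower, adding Cdh5 (-0.20, adjusted p = 0.0210). It called 3666 of all tested genes higher and 3467 lower. The SE of Cdh5 was 0.066 with the block and 0.093 without it, so whether the numbers pair samples was not settled. Depth limits Tek most, with 141 to 350 reads per library, against 1098 to 2541 on Slc2a1.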
